A study of Mus musculus with 8 samples.

Results

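The Hox genes encode homeodomain transcription factors and stand in 4 clusters in the mouse genome. The members described here are the 39 protein-coding genes of GRCm38 whose symbol is Hoxa, Hoxb, Hoxc or Hoxd followed by a number, of 21887 protein-coding genes on chromosomes 1 to 19, X and Y. There are 11 Hoxa genes (chromosome 6, 52155367 to 52260880), 10 Hoxb genes (chromosome 11, 96194316 to 96368254), 9 Hoxc genes (chromosome 15, 102921131 to 103036856) and 9 Hoxd genes (chromosome 2, 74668225 to 74765142). A gene was counted as having a peak in a library when any base of a called peak lay in its gene body or within 10 kb of either end.

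The assay was ATAC-seq, which reads open chromatin from the places where the transposase Tn5 can insert, and the cells were BV2, an immortalised mouse microglial line. The 4 groups were BV2 grown alone at 21% oxygen, BV2 grown alone below 0.1% oxygen, BV2 grown together with the mouse glioma line GL261 at 21% oxygen, and the same co-culture below 0.1% oxygen, each held for 16 h and each with 2 biological replicates. All cells were fixed with formaldehyde and sorted before tagging, and the labels name a gate for CD45 or for GFP without saying which library used which. BV2 is 1 cell line, so the replicates are separate cultures and not separate animals.

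Hox genes are expressed in the order in which they lie along the cluster and give cells their position along the body axis. Genes of the lower numbers act towards the head and those of the higher numbers towards the tail and limbs. In tissues that do not use a cluster, Polycomb complexes keep it compact and silent, while MLL and Trithorax complexes keep used genes active. In blood cells the Hoxa genes work with the cofactors Meis1 and Pbx3 in progenitors and are switched off as myeloid cells mature, and microglia of the brain arise from yolk sac progenitors.

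Most Hox genes had no called peak. In all 8 libraries together, 27 of the 39 genes (69.2%) had no peak within 10 kb, against 30.5% of all protein-coding genes. The other 12 genes had a peak in at least 1 library (30.8%, against 69.5%), and no Hox gene had one in all 8 libraries, against 29.7% of all protein-coding genes. Hox genes are short, with a median body of 3.74 kb against 17.2 kb over all genes, so their windows are smaller. Among genes with a body of up to 10 kb the order was the same. Of 33 such Hox genes 11 (33.3%) had a peak in any library, against 51.7% of 7926 such genes. A gene with no peak is one where no peak was called at the depth of these libraries, which does not show that its chromatin was closed.

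The members were carried by very few peaks. Over the 8 lists 22 peaks lay within 10 kb of a Hox gene, and merging those that overlapped gave 9 regions, 8 at the Hoxa cluster and 1 at the Hoxc cluster. Each region counts for from 1 to 5 neighbouring genes, so the genes are not independent of each other. Peaks were from 350 to 854 bp wide. The strength of a peak is given below as its percentile, the share of peaks in its own list with a −log10 p at or below its own. The 22 peaks had percentiles from 4.9 to 79.2 with a median of 33.8, and 13 lay below 50, so most were among the weaker peaks of their lists. Their summits held from 10 to 61 fragments (median 18), as solved from the authors' fold and −log10 p.

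**Figure D1:**
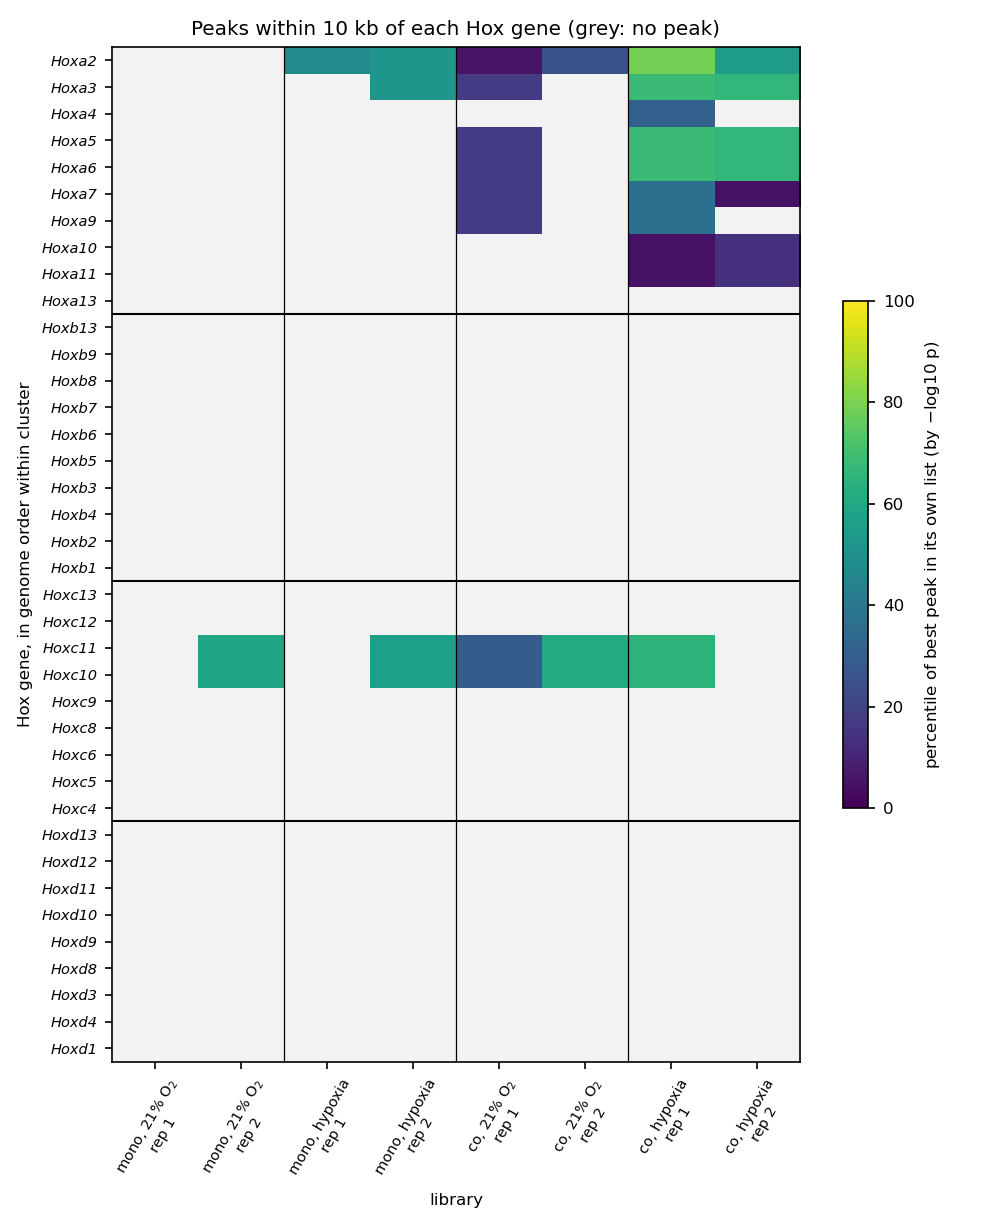
Rows are Hox genes in genome order, all but 1 Hoxa gene, and columns the 8 libraries, with the percentile of the best peak within 10 kb as colour and grey where no peak was called. Hoxb and Hoxd are empty, Hoxc is filled only at Hoxc11 and Hoxc10, and Hoxa is filled most in the co-culture hypoxia libraries. With the gene that is not drawn counted in, 10 and 8 of 11 Hoxa genes had a peak there.

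The Hoxb and Hoxd clusters had no peak in any library. This covers all 10 Hoxb genes, among them Hoxb8, whose lineage marks a subset of mouse microglia, Hoxb4, known for expanding blood stem cells, and Hoxb13, known from the prostate. It also covers all 9 Hoxd genes, among them Hoxd13, which patterns the digits. Around Hoxb the stretch without any merged region was 689.3 kb long, from 118 kb before the cluster to 397 kb after it. Around Hoxd it was 218.9 kb, from 61.6 kb before to 60.4 kb after. For comparison, 492 tiles of 200 kb in the genome hold the starts of at least 8 protein-coding genes, and 69 of them (14%) had no region in any library. Of the 710 genes starting in those empty tiles, 453 were olfactory or vomeronasal receptor genes and 9 were Hox genes. These 9 were all Hoxb genes, in 1 tile. The tile of the Hoxd genes was not empty, since it held the region 61.6 kb before that cluster.

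Genes beyond the clusters did have peaks. At the Hoxb side the nearest region, at Atp5g1, a subunit gene of the mitochondrial ATP synthase, was called in all 8 libraries with percentiles from 95.8 to 99.2. At the Hoxd side the nearest region called in all 8 libraries, 88.8 kb from the cluster, lay at Lnpk, with percentiles from 29.0 to 70.4. Next to Hoxa, a region at Skap2, an adaptor protein gene of leukocytes, lay 142 kb from the cluster and was called in all 8 libraries. These 3 were chosen after their values were seen. In the 300 kb on both sides of each gene span there were 12 regions for Hoxa, 4 for Hoxb, 25 for Hoxc and 4 for Hoxd, or 2, 0.667, 4.17 and 0.667 per 100 kb. Within the gene spans the densities were 6.63, 0, 0.864 and 0 per 100 kb, against 1.5 over the genome. Hoxa was therefore the 1 cluster with a higher density of regions inside its gene span than in its flanks, although none of these was called in all 8 libraries.

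**Figure D2:**
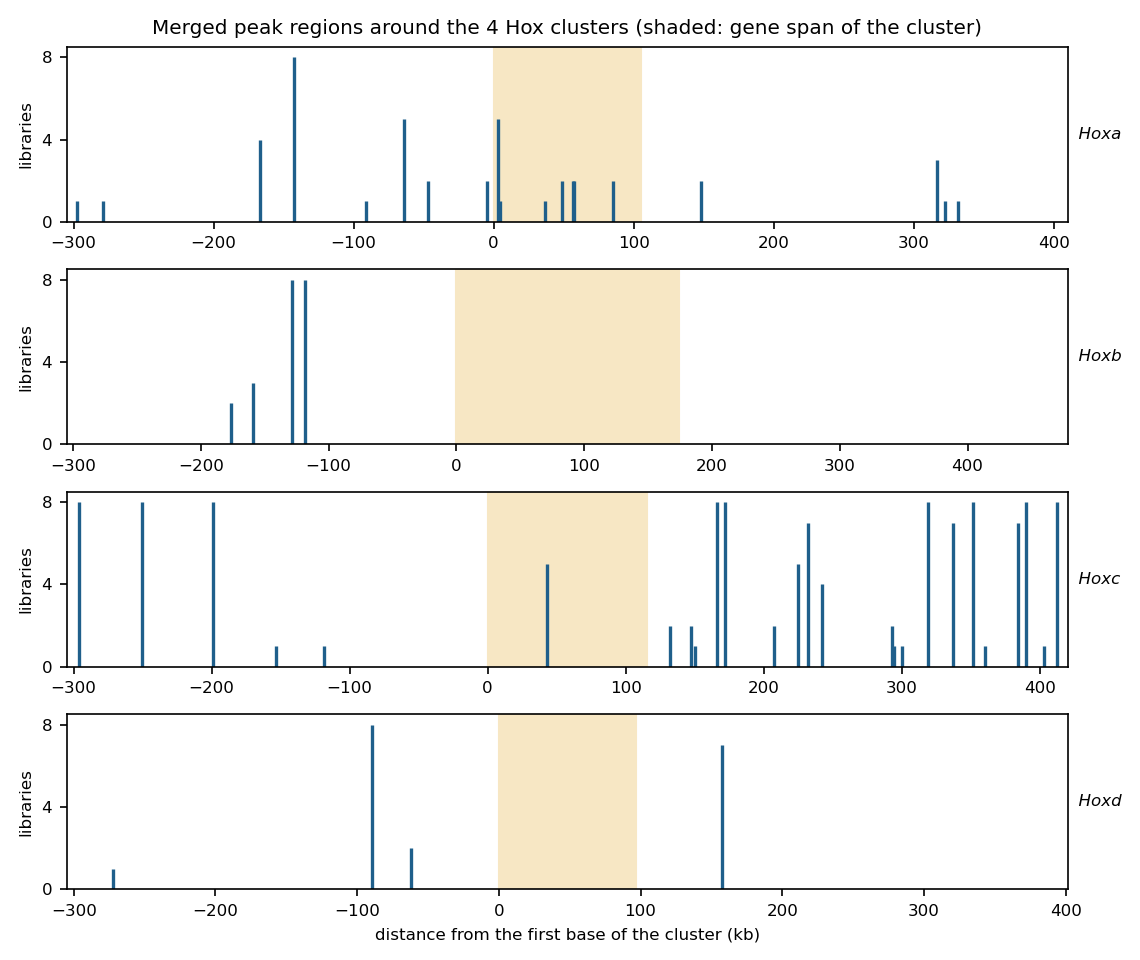
Each vertical line is a merged region, placed by its distance in kb from the first base of the cluster and drawn as high as the number of libraries (of 8) with a peak in it, and the gene span is shaded. The shaded spans of Hoxb and Hoxd are empty, that of Hoxc holds 1 region in 5 libraries, and that of Hoxa holds 7 regions in 1 to 5 libraries.

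The promoters of Hoxa5 and Hoxa3 are shown because they were the Hox promoter windows that a called peak overlapped. RefSeq windows of GRCm38.p6, from 250 bases before to 50 after a start site, were matched for 22 of the 39 genes (24 windows, since Hoxa10 and Hoxd11 have more than 1). Capitals mark the bases that lay inside a peak in both libraries that had it. The Hoxa5 window is chr6:52204538-52204837, minus strand, and its peak was called in both co-culture hypoxia libraries. The Hoxa3 window is chr6:52213018-52213317, minus strand, and its peak was called in co-culture normoxia replicate 1 and co-culture hypoxia replicate 1.
Hoxa5: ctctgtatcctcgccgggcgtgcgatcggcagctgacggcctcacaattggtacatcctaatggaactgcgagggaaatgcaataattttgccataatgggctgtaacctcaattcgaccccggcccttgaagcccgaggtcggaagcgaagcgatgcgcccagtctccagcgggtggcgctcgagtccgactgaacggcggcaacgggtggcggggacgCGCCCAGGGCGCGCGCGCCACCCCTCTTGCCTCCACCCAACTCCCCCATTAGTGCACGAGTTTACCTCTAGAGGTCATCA
Hoxa3: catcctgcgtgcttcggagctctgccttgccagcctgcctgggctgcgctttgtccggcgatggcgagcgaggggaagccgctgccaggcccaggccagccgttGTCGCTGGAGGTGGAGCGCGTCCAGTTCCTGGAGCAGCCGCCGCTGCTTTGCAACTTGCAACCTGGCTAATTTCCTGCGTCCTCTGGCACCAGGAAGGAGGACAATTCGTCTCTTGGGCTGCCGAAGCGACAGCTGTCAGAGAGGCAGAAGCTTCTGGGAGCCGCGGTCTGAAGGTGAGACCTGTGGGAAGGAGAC

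The capitals cover 80 bases of the Hoxa5 window, at its downstream end around the start site, and 196 bases of the Hoxa3 window. These windows are rich in CpG, with 29 CpG in Hoxa5 and 20 in Hoxa3. Over the 24 Hox windows the median was 14.5 CpG (from 4 to 45), against 13 over 21263 windows of protein-coding genes. These Hox windows were nonetheless seldom under a peak, with 2 of 24 (8.33%) overlapped by a peak in any library against 46.1% of all windows. The promoters of the 17 Hox genes without a window were not counted. Among windows with at least 14.5 CpG these were 2 of 12 Hox windows and 73.6% of 9957 windows. Hoxa13, with the highest count (45 CpG), and Hoxd13 (37 CpG) had none.

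Motifs were searched in the windows by their letters on both strands. The core of the hypoxia response element, to which HIF binds, is written ACGTG or GCGTG. Hoxa5 and Hoxa3 each held 1 GCGTG and no ACGTG, and in both windows it lay outside the capitals. Of all windows 38.5% held GCGTG and 20.9% held ACGTG, and of the 24 Hox windows 9 and 7 did. Neither sequence held an AP-1 site (TGANTCA, in 6.99% of all windows), a PU.1 core (GAGGAA, 27.4%) or a HOX-PBX site (TGATNNAT, 7.45%). No match says only that these letters are not in these windows.

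The number of Hox genes with a peak differed between cultures. Monoculture normoxia had 0 and 2 Hox genes with a peak in replicates 1 and 2 (mean 1 ± 1.41, SD, n = 2). Monoculture hypoxia had 2 and 5 (3.5 ± 2.12, n = 2), co-culture normoxia 9 and 4 (6.5 ± 3.54, n = 2), and co-culture hypoxia 12 and 8 (10 ± 2.83, n = 2). Both co-culture libraries lay above both monoculture libraries at each oxygen level, while the hypoxic and normoxic libraries touched in monoculture and overlapped in co-culture. Averaged over oxygen, co-culture libraries had 6 more Hox genes than monoculture libraries, where replicates differed by a pooled SD of 2.6 genes. This culture difference was 3 genes with a distance of 1 kb in place of 10 kb, and 2.5 genes when each list was limited to its 9910 strongest peaks. Averaged over culture, hypoxic libraries had 3 more than normoxic ones, close to that SD. The oxygen difference was 1.75 genes without co-culture normoxia replicate 2, 2 without co-culture hypoxia replicate 1 and 1.5 in the lists of 9910 peaks. No test was run, because the members share peaks and were chosen with results of these data known.

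Over all genes the groups stood in much the same order. Of all protein-coding genes, 42.2% and 35.2% had a peak in monoculture normoxia, 57.1% and 57.9% in monoculture hypoxia, 58.6% and 59.7% in normoxic co-culture, and for co-culture hypoxia the shares were 64.1% and 60.2%. Both monoculture normoxia lists are short (13333 and 9910 peaks), against 21790 and 21826 peaks in normoxic co-culture. The hypoxic groups are closer in length, with 24370 and 26339 peaks in monoculture and 29658 and 21633 in co-culture. Background coverage, a measure of depth in fragments per position, was 0.758 and 1.03 for monoculture normoxia, 1.45 and 1.41 in monoculture hypoxia, 1.07 and 1.38 in normoxic co-culture, and 1.42 and 1.17 in co-culture hypoxia. The part of depth in the Hox counts was not tested. Per 10000 peaks of a list, the peaks near Hox genes numbered 0 and 1.01 for monoculture normoxia, 0.41 and 1.14 for monoculture hypoxia, 1.38 and 0.916 for normoxic co-culture, and 2.7 and 1.85 for hypoxic co-culture.

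At the low-numbered end of the Hoxa cluster, Hoxa2, a gene of the pharyngeal arches, had a peak within 10 kb in 6 libraries, all but those of monoculture normoxia, and not through the same region in each. No region lay inside its own body. The annotation used gives gene bodies without exons, so exon or intron is not stated for the regions below.

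In the middle of the cluster, the region at the Hoxa5 promoter (52204099 to 52204679) was called in both co-culture hypoxia libraries and in no other. Hoxa5 is known from lung development, and the region also lies in the bodies of Hoxa3 and of the long non-coding gene Hoxaas3. Its percentiles were 68.3 and 66.2, with 33 and 32 fragments at summits that lay at 52204491 and 52204496. The replicates thus placed the summit within a few bases of each other. It was the region with the highest percentiles among those called in both libraries of 1 group and in no other.

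The start of Hoxa3, a gene of the thymus and parathyroid, had the region at 52212630 to 52213331. It was called in co-culture normoxia replicate 1 (percentile 17.4, 11 fragments) and co-culture hypoxia replicate 1 (percentile 36.5, 23 fragments), and not in the other replicate of either group. Beside it, 52211511 to 52212123 was called in both co-culture hypoxia libraries, with percentiles of 11.8 and 4.9 and with 16 and 11 fragments. A region near Hoxa4 (52191884 to 52192368) was called in co-culture hypoxia replicate 1 alone, at percentile 31.1.

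Towards the Hoxa13 end, 1 region lay inside Hoxa10 (52240184 to 52240658), a gene of the uterus and of blood progenitors. It was called in both co-culture hypoxia libraries, at percentiles of 5 and 14.3 with 10 and 11 fragments, and in no other library. It is also the region within 10 kb of Hoxa11. Hoxa7 and Hoxa9, the latter known for driving myeloid leukaemia together with Meis1, had no region in their own bodies and counted through those at Hoxa3. Hoxa13 had no peak.

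**Figure D3:**
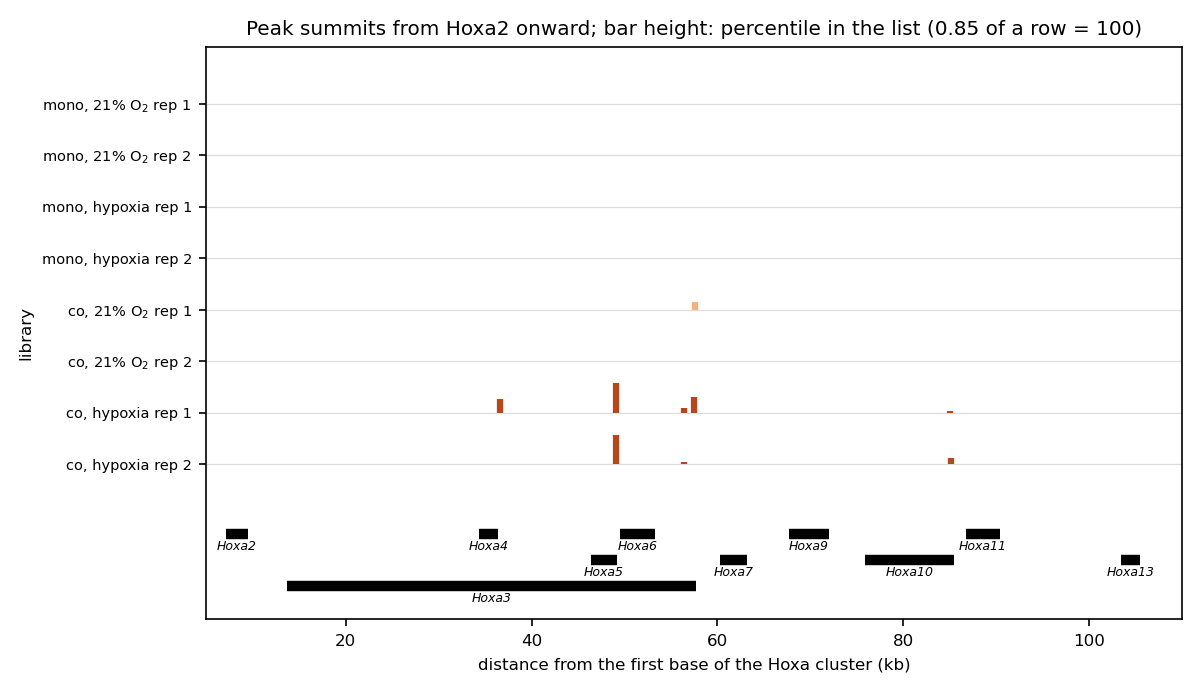
Peak summits along the Hoxa cluster from Hoxa2 onward, by distance in kb from the first base of the cluster, with 1 row per library, the bar height giving the percentile in the library's own list, and gene bodies in black. The monoculture rows hold no bar in this stretch, and the bars at Hoxa5 and Hoxa10 stand in the co-culture hypoxia rows alone.

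The Hoxc cluster had 1 region, at 102963629 to 102964314, which lies between Hoxc11 and Hoxc10, genes of the lower trunk and hindlimb. It overlapped no annotated gene and lay 2482 bp from Hoxc10. It was called in 1 library of each of 3 groups and in both of co-culture normoxia. The percentiles were 59.2 in monoculture normoxia replicate 2, 56.5 in monoculture hypoxia replicate 2, 29.3 and 61.2 in both replicates of normoxic co-culture and 64.5 in co-culture hypoxia replicate 1. The summits held 18, 25, 16, 28 and 33 fragments, between 102963925 and 102963966. Neither oxygen nor culture separated the libraries that had it from those that lacked it. The other 7 Hoxc genes had no peak.

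Gains and losses were counted between 2 libraries and 2. A gene was called gained if it had a peak in both replicates of the group named first and in no replicate of the other, and lost in the reverse case. These contrasts share libraries with each other and carry no test. No Hox gene was lost in any of the 4, where 0.119%, 0.576%, 0.0366% and 0.626% of all genes were lost with hypoxia in monoculture, hypoxia in co-culture, co-culture in normoxia and co-culture in hypoxia.

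With hypoxia in monoculture 2 of 39 Hox genes were gained (5.13%, against 10.3% of all protein-coding genes), both in the Hoxa cluster, with Hoxa2 among them. With co-culture in normoxia the same 2 genes were gained, against 11.0% of all genes. Both shares were below the background. The number gained with hypoxia in monoculture was 1 within 1 kb (against 8.97% of all genes) and 0 in the lists of 9910 peaks (against 2.15%). With co-culture in normoxia it was 1 within 1 kb (against 10.3%), 0 at a −log10 q of at least 5 (against 12.5%) and 0 in the lists of 9910 peaks (against 2.73%). Leaving out a library loosens the rule for every gene. Without co-culture normoxia replicate 2 it was 7 (17.9%, against 13.9% of all genes), and without monoculture normoxia replicate 2 it was 4 (10.3%, against 14.5%). In the first contrast the 2 hypoxic libraries had different regions, so that no region near a Hox gene was gained there (against 17.7% of all regions). With co-culture in normoxia 1 region was gained (of 9 Hox regions, against 12.5% of all regions). No Hox region was lost in any contrast, where 0.179%, 2.05%, 0.181% and 3.76% of all regions were lost.

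With hypoxia in co-culture 2 Hox genes were gained (5.13%, against 1.96% of all genes), Hoxa10 and Hoxa11, through the 1 region inside Hoxa10. The number was 0 at a −log10 q of at least 5 (against 2.3% of all genes) and 0 when longer lists were limited to their 21633 strongest peaks, the length of the co-culture hypoxia replicate 2 list (against 1.35%). Without co-culture normoxia replicate 1 it was 6 (15.4%, against 3.99%). Without co-culture hypoxia replicate 1, 2 Hox genes were lost (5.13%, against 2.38%), through the Hoxc region. By region, 3 of 9 were gained, those at Hoxa5, beside the Hoxa3 start and inside Hoxa10 (33.3%, against 6.09% of all regions). The region beside the Hoxa3 start had a −log10 q of 3.65 in co-culture hypoxia replicate 2. The region inside Hoxa10 had 4.36 in replicate 1, so both fell below 5 in a library. At Hoxa5 the values were 25 and 22.4. Region gains were not counted at that cut. Hoxa5 itself was not among the genes gained, because co-culture normoxia replicate 1 had the Hoxa3 start peak within 10 kb of it.

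With co-culture in hypoxia 5 Hox genes were gained (12.8%, against 3.51% of all genes), which were Hoxa5, Hoxa6, Hoxa7, Hoxa10 and Hoxa11. These rest on the same 3 regions (of 9, or 33.3%, against 5.83% of all regions). As given above, those beside the Hoxa3 start and inside Hoxa10 had a −log10 q below 5 in a co-culture hypoxia library. At a −log10 q of at least 5 the number was 2 (against 3.83% of all genes), and with lists limited to 21633 peaks it was 3, Hoxa5, Hoxa6 and Hoxa7 (against 3.9%). No Hox gene separated all 4 hypoxic from all 4 normoxic libraries, or all 4 co-culture from all 4 monoculture libraries, where 0.535% and 1.35% of all genes were gained in these ways and 0.0183% and 0.00457% were lost. Without co-culture normoxia replicate 2, 3 Hox genes (Hoxa5, Hoxa6 and Hoxa7) separated the cultures (7.69%, against 1.79% of all genes under the same rule).

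Lists of equal length gave a narrower picture. With the 9910 strongest peaks of each library, the Hox genes with a peak numbered 0 and 2 in monoculture normoxia, 0 and 0 in monoculture hypoxia, 0 and 2 with normoxic co-culture, and 5 and 5 in co-culture hypoxia. The shares of all genes in the same order were 35.6%, 35.2%, 34.0%, 31.9%, 38.5%, 40.4%, 39.6% and 43.2%, so the libraries were closer to each other than in the full lists. In any of these lists 7 Hox genes had a peak (17.9%, against 55.9%, with 44.1% of all genes in none). The 5 genes were the same in both replicates of co-culture hypoxia, with Hoxa2, Hoxa3, Hoxa5 and Hoxa6 among them, the last 3 through the region at the Hoxa5 promoter. Within these shorter lists the percentiles in replicates 1 and 2 were 5 and 26.3 for Hoxa5, and 37.6 and 2.5 for Hoxa2. Each of these genes was thus close to dropping out in 1 replicate. The 5 genes were gained with hypoxia in co-culture (12.8%, against 3.34% of all genes) and with co-culture in hypoxia (12.8%, against 6.70%). In the full lists Hoxa2 was gained in neither contrast, because weaker peaks near it, left out here, counted in the groups compared. No Hox gene was gained in the other contrasts in these lists, where 2.15% of all genes were gained with hypoxia in monoculture and 2.73% with co-culture in normoxia. No Hox gene was lost, where 3.21%, 2.28%, 0.959% and 1.52% of all genes were lost in the 4 contrasts. None separated 4 libraries from 4 by oxygen (0.210% of all genes gained, 0.493% lost) or by culture (0.662% gained, 0.0868% lost). No Hox region was called in all 8 equal-number lists, so no percentile of a Hox region could be compared, where 15.0% of 3418 regions did not overlap between oxygen levels and 11.0% between cultures.

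Genes that bind with or regulate Hox genes mostly had peaks. Of 9 TALE cofactors, the homeodomain partners of Hox proteins, all had a peak in at least 1 library (against 69.5% of all genes) and 4 in all 8 (44.4%, against 29.7%), Pbx2, Pbx4, Meis1 and Meis2. Meis1 had percentiles of 70.1 and 51.8 in monoculture normoxia, 65.1 and 77.6 in monoculture hypoxia, 61.7 and 74.1 with normoxic co-culture, and 58.9 and 42.6 in co-culture hypoxia. Libraries with and without Hoxa peaks thus both had a Meis1 peak. Of the 9, 1 was gained with hypoxia in monoculture (Meis3), 0 with hypoxia in co-culture, 3 with co-culture in normoxia and 2 with co-culture in hypoxia, and none was lost. The shares of all genes gained in these contrasts were 10.3%, 1.96%, 11.0% and 3.51%, and they are the background of each list below as well. Pbx3, the partner of Hoxa9, was called in each co-culture library (percentiles 41.5, 36.7, 68.1 and 69.8) and in no monoculture library.

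Among 27 genes of Polycomb complexes, which repress Hox clusters, 26 (96.3%, against 69.5% of all genes) had a peak in at least 1 library and 11 (40.7%, against 29.7%) in all 8. Gains numbered 3, 0, 4 and 2 in the 4 contrasts, in the order used above, and there were no losses. The shares of all genes gained were 10.3%, 1.96%, 11.0% and 3.51%. The catalytic subunit gene Ezh2 had percentiles from 54.1 to 87.6 in all 8 libraries. Ring1, which encodes a ubiquitin ligase, was called in each co-culture library (8.5, 42.1, 60.8 and 61.7) and in no monoculture library. Mtf2 and Phc3 were gained both with hypoxia in monoculture and with co-culture in normoxia. All 20 genes of the MLL and Trithorax side had a peak in at least 1 library and 10 in all 8 (50%, against 29.7% of all genes), with 4, 0, 2 and 1 gains and no losses, against 10.3%, 1.96%, 11.0% and 3.51% of all genes. Ash2l, a core subunit of the methyltransferase complexes, and Dot1l, a histone H3 methyltransferase, were gained with hypoxia in monoculture and with co-culture in normoxia.

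The share with a peak was also below that of all genes for other homeobox genes. Of 52 homeobox genes of development outside the Hox clusters, 20 (38.5%, against 69.5% of all genes) had a peak in at least 1 library and 4 (7.69%, against 29.7%) in all 8. Gains numbered 7, 0, 12 and 3 of 52, against 10.3%, 1.96%, 11.0% and 3.51% of all genes and 2, 2, 2 and 5 of the 39 Hox genes, with no losses. The gains of these genes and of the Hox genes thus did not stand in the same order over the contrasts. Pax6, an eye and forebrain factor, was called in each co-culture library (70.3, 33.2, 66.1 and 33.9) and in no monoculture library, as had Pax9 (25.2, 12.4, 23.2 and 31.6). Otx1, a forebrain factor, had a peak in all libraries but those of monoculture normoxia. Of 6 ParaHox and Cdx genes, the relatives of the Hox clusters, only Cdx2 had a peak (16.7%, against 69.5% of all genes), in all 8 libraries, with percentiles from 14.9 to 72.6. Of 10 neighbours of the Hox clusters that were matched in the table (of 11 listed), 8 (80%, against 69.5% of all genes) had a peak in at least 1 library and 4 (40%, against 29.7%) in all 8, and none was gained or lost.

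Markers of both cell lines were read beside the Hoxa peaks. Of 12 microglia and macrophage markers, 7 and 7 had a peak in monoculture normoxia, 11 and 11 in monoculture hypoxia, 11 and 12 with normoxic co-culture, and 12 and 10 in co-culture hypoxia. Ptprc, which encodes CD45, Csf1r, Cx3cr1, P2ry12 and Aif1 had one in all 8 libraries (5 of 12, or 41.7%, against 29.7% of all genes). Gains of these markers numbered 3, 0, 3 and 0, against 10.3%, 1.96%, 11.0% and 3.51% of all genes. The 3 were in both cases Spi1, which encodes the myeloid factor PU.1, Tyrobp, a signalling adaptor gene, and Irf8, a factor of the macrophage lineage, none of which had a peak in monoculture normoxia. Itgam had a peak in 3 libraries. Of 12 glioma and glial markers, 1 and 1 had a peak in monoculture normoxia, 2 and 3 in monoculture hypoxia, 5 and 3 with normoxic co-culture, and 8 and 6 in co-culture hypoxia. The groups stood in this order for the Hox genes and for all protein-coding genes too. Gains of these 12 markers numbered 1, 1, 0 and 4 in the 4 contrasts, against 10.3%, 1.96%, 11.0% and 3.51% of all genes, and none was lost. Thus none was gained with co-culture in normoxia, and the 4 gained with co-culture in hypoxia were Sox2, Nes, Pdgfra and Gfap. S100b was the 1 marker gained with hypoxia in each culture (against 10.3% of all genes in monoculture and 1.96% in co-culture). Sox9, Olig2, Egfr and Fabp7 had no peak in any library. Nfia had one in all 8. The part that GL261 cells left in the sorted co-culture samples may have in the Hoxa peaks was not tested.

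**Figure D4:**
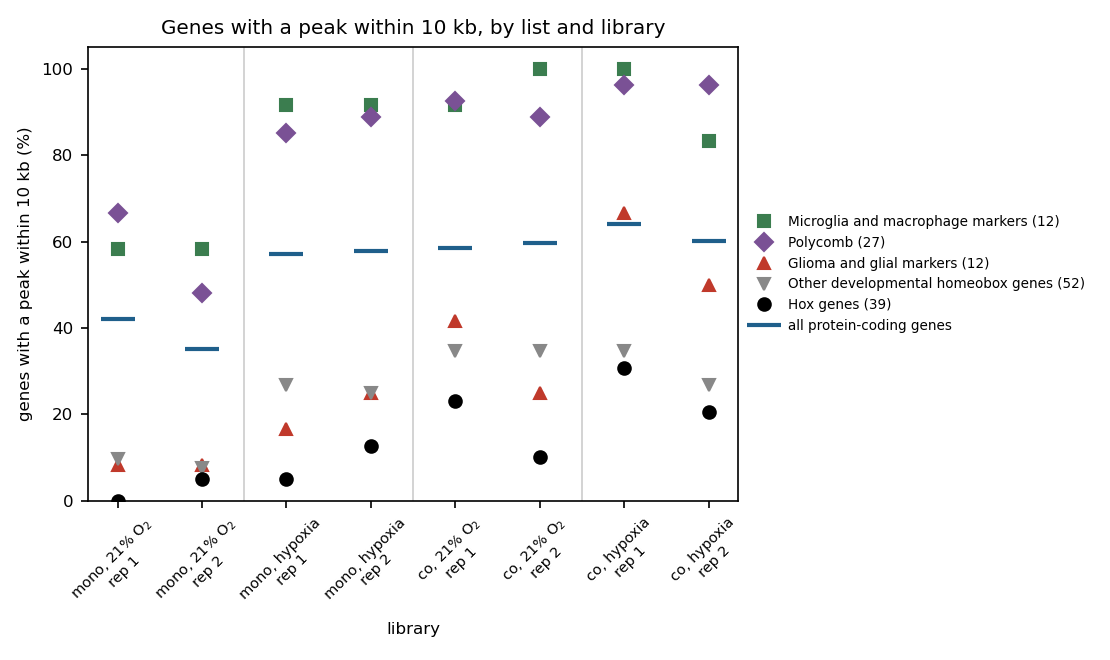
Percent of the genes of each list with a peak within 10 kb, in each library, with list sizes in the key and a dash for all protein-coding genes. Hox genes lie below all protein-coding genes in all 8 libraries (from 0 to 30.8%), and they, the glioma markers and all protein-coding genes are highest in co-culture hypoxia replicate 1.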

How the data were processed

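The data were 8 lists of ATAC-seq peaks, 1 per BV2 library, so peaks were called per library by the authors. Per the submitters' processing notes, Trimmomatic 0.36, HISAT2 2.1.0, Picard, SAMtools, deepTools and MACS2 2.1.1.2 were used on mm10, with no settings, Tn5 shift or filters given in the sources used here. The authors' fold is a ratio (summit over local background), and their −log10 p and −log10 q were used to order or filter peaks of 1 list. The authors' score was not used.

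Genes came from a RefSeq table of GRCm38.p6, the assembly of mm10. Peaks of the 8 lists that overlapped were merged into 40784 regions. Fragments at a summit (n) and background (b) were solved from the deposited fold as (n + 1)/(b + 1) and the −log10 p as a Poisson tail, within 0.001, for peaks with a −log10 p up to 250. At least 99.98% of them were solved. Background coverage ran from 0.758 to 1.45 fragments per position, and Hox summits of 10 to 61 fragments rest on few reads. Named regions were those called in both libraries of a contrast and the remaining Hox regions, except 3 that are not reported here, and list genes were the 3 called in the most contrasts or, where named otherwise, chosen after their values were seen. The members and lists were chosen with earlier results of these data known. Alternatives were a distance of 1 kb, the 9910 strongest peaks per list, a −log10 q of at least 5, summits in place of peaks, no peaks wider than 10 kb, each library left out, and, chosen after seeing the data, lists limited to 21633 peaks and a replicate block. Python 3.11.15, numpy 2.4.6, pandas 2.3.3, scipy 1.17.1 and matplotlib 3.10.9 were used. Values of 1 Hoxa gene and 1 cofactor gene are not reported here, and both stay in the counts.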

Additional observations from a re-analysis of the deposited data

How the results depend on the processing

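The number of Hox genes without any peak was 27, from 27 to 28 with 1 library left out, 33 within 1 kb and 32 in equal-number lists, and the number with a peak in all libraries was 0 throughout (0 to 0 with 1 library left out). That 0 could change only without monoculture normoxia replicate 1, which had no Hox gene with a peak, since the other alternatives keep that library and add no peak. Using summits, or leaving out peaks wider than 10 kb, moved no count by more than 1.5 times and neither difference by more than the replicate SD. With 1 kb in place of 10 kb, the culture difference was 3 genes, and gains were 1 with hypoxia in monoculture and 1 with co-culture in normoxia. In equal-number lists the culture difference was 2.5 and the oxygen difference 1.5 genes, and gains were 0 with hypoxia in monoculture, 5 with hypoxia in co-culture and 0 with co-culture in normoxia. At a −log10 q of at least 5, gains were 0 with hypoxia in co-culture, 0 with co-culture in normoxia and 2 with co-culture in hypoxia. With lists limited to 21633 peaks, gains were 0 with hypoxia in co-culture and 3 with co-culture in hypoxia. The cause was not tested.

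With 1 library left out, the oxygen difference ran from 1.75 (without co-culture normoxia replicate 2) to 4.25 genes and the culture difference from 4.75 to 7.25. Leaving out a library loosens the rule for a gain by construction. Gains ran from 2 to 3 with hypoxia in monoculture, 2 to 6 with hypoxia in co-culture (the 6 without replicate 1 of normoxic co-culture), 2 to 7 with co-culture in normoxia (4 without monoculture normoxia replicate 2, 7 without co-culture normoxia replicate 2) and 5 to 7 with co-culture in hypoxia. Losses ran from 0 to 2 with hypoxia in co-culture (the 2 arose when replicate 1 of hypoxic co-culture was left out) and from 0 to 0 in the other contrasts. Genes separating 4 libraries from 4 ran from 0 to 3, and Hox regions with percentiles apart from 0 to 0, a range fixed by there being 0 Hox regions to compare in any 7 equal-number lists. The labels do not say that a replicate number marks a shared batch. Between libraries of the same number (1, then 2), hypoxia minus normoxia was 2 and 3 Hox genes in monoculture and 3 and 4 in co-culture, and co-culture minus monoculture was 9 and 2 in normoxia and 10 and 3 in hypoxia. With the replicate block, an alternative chosen after seeing the data, the oxygen difference was 3 and the culture difference 6 genes, as without it. The block could not change these values, because each group holds each replicate number. Depth limits what an uncalled peak means, most of all in monoculture normoxia.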
